A study of Mus musculus with 16 samples.

Results

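The 10 genes described here make, recycle and use glutathione, and they were chosen by name, as 10 of the 57132 genes counted in mouse bone marrow. Slc7a11 brings in cystine, Gclc, Gclm and Gss build glutathione, Gsr recycles it, and Gpx4, Gsta4, Gstm1, Gstp1 and Mgst1 spend it. RNA was sequenced from whole marrow of wild type C57BL/6 mice (WT, spelled CB57BL/6 in the genotype label) and of the same background with an Nrf2-/- knockout (KO). Each genotype received PBS, BMX-001, 5-fluorouracil (5-FU, a chemotherapy drug that blocks thymidylate synthase) or both drugs, with 2 libraries in each of the 8 groups and 16 in all. BMX-001, a manganese porphyrin that scavenges reactive oxygen species, was dosed at 0.5 mg/kg from 24 h ahead of 5-FU onward, at intervals of 3 days. The dose of 5-FU was 20 mg/kg, repeated on day 7, and marrow was collected on day 10. The WT mice were males of 8 to 10 weeks. The KO mice were bred from Nrf2+/- parents and carry an inactive mutant Nrf2 in every cell, and neither their age nor their sex is given. Genotype and these differences between the mice therefore cannot be told apart. The marrow was isolated in duplicate, and the labels leave unsaid whether a pair comes from separate mice. Should a pair come from 1 mouse, the p-values would reflect a spread that may be technical only.

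Glutathione is a small peptide of glutamate, cysteine and glycine that keeps the inside of the cell reduced. Glutamate-cysteine ligase, made of the catalytic subunit Gclc and the modifier subunit Gclm, carries out the limiting step of its synthesis. The transcription factor NRF2, encoded by Nfe2l2, enters the nucleus under oxidative or electrophilic stress and binds antioxidant response elements, and genes for glutathione synthesis are among its textbook targets. Red cell precursors and neutrophils of the marrow both depend on reduced glutathione, the first to protect haemoglobin and membranes and the second while producing oxidants.

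A short form of the antioxidant response element core, TGACNNNGC on either strand, was looked for in RefSeq promoter windows of GRCm38.p6 that reach from 250 bases before to 50 bases after each gene's start. Windows were found for 7 of the 10 genes (Slc7a11, Gclm, Gss, Gpx4, Gstm1, Gstp1 and Mgst1), 12 windows in all. The letters occur in 2 of these 12 windows, in Gclm and in Mgst1, against 12.4% of all 32851 windows. Both stretches are shown because they carry the sequence that NRF2 is known to bind, with the match, which lies on the strand opposite to the gene, in capitals. In Gclm (chr3:122245398-122245456, gene on the + strand) the match spans 134 to 126 bases before the start. In Mgst1 (chr6:138140446-138140504, gene on the + strand) it spans 56 to 48 bases before the start.
Gclm: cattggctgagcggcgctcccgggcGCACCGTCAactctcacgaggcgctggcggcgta
Mgst1: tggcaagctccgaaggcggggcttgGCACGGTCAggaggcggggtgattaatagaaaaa
A match describes letters in a window and says nothing of whether the factor binds there.

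Library totals ran from 27305707 counts in KO BMX-001 replicate 1, with 32279138 in the next lowest, to 39909188 counts. Levels are normalised CPM, that is, a gene's counts relative to its library's total, adjusted by TMM scaling. Nfe2l2 itself stood at 116 ± 6.17 CPM in WT and 8.97 ± 3.32 CPM in KO (SD, n = 8 each), with a lowest WT value of 102 CPM. The highest KO value, 16.7 CPM, was that of KO BMX-001 replicate 1, and the other KO libraries lay between 6.48 and 9.50 CPM. The marrow carried its defining transcripts in all 16 libraries: the summed level of 14 erythroid markers (Hbb-bs and Hba-a1 among them) ranged from 50665 to 94630 CPM, and that of 10 markers of maturing neutrophils (S100a9 and Ngp among them) from 25523 to 38855 CPM. One library did not resemble the rest, KO BMX-001 replicate 1. Its 8 markers of granulocyte precursors, such as Mpo and Elane, summed to 712 CPM against 2225 to 3527 CPM elsewhere.

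All 10 genes passed the filter on low counts. Levels were compared per kilobase of exon, with all annotated exons of a gene merged. The longest coding transcript can be much shorter, with 995 bases against 1724 for Gpx4 and 821 against 1548 for Gstp1. For Gss it has 1963 against 5915 bases, and for Gsr 2673 against 2754. The order and gaps below were computed for merged exons only and could differ with transcript lengths. Gsr was the most abundant, at 161 ± 16.2 CPM per kb (SD, n = 16). Gpx4 followed at 79.4 ± 7.28 CPM per kb. Gstm1 at 46.7 ± 11.1, Gclm at 45.8 ± 6.77, Mgst1 at 44.3 ± 5.51 and Gclc at 34.4 ± 5.10 CPM per kb formed a middle group in which each gene's range over the 16 libraries overlapped that of its neighbour. Gstp1 stood at 19.6 ± 3.27 CPM per kb, and below it Gss at 2.02 ± 0.263, Slc7a11 at 0.81 ± 0.276 and Gsta4 at 0.74 ± 0.200 CPM per kb. With merged exons, the ranges of Gsr and Gpx4 did not overlap, nor did those of Gclc and Gstp1 or of Gstp1 and Gss. Gpx4 overlapped Gstm1, and Slc7a11 overlapped Gsta4. Slc7a11 overlapped Gss only through KO BMX-001 replicate 1, at 1.68 CPM per kb for Slc7a11 and 1.37 for Gss. In the other 15 libraries Slc7a11 reached at most 1.13 and Gss was at least 1.72 CPM per kb. The marrow thus held far more transcript for recycling glutathione than for importing cystine. Levels of 3 genes are uncertain because other genes share their sequence: 52.8% of the 100-base stretches of Gstp1 occur in other genes' transcripts (Gstp2 among them), 48.4% of those of Gpx4 and 7.73% of those of Gstm1. None of the other 7 genes shared such a stretch.

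**Figure D1:**
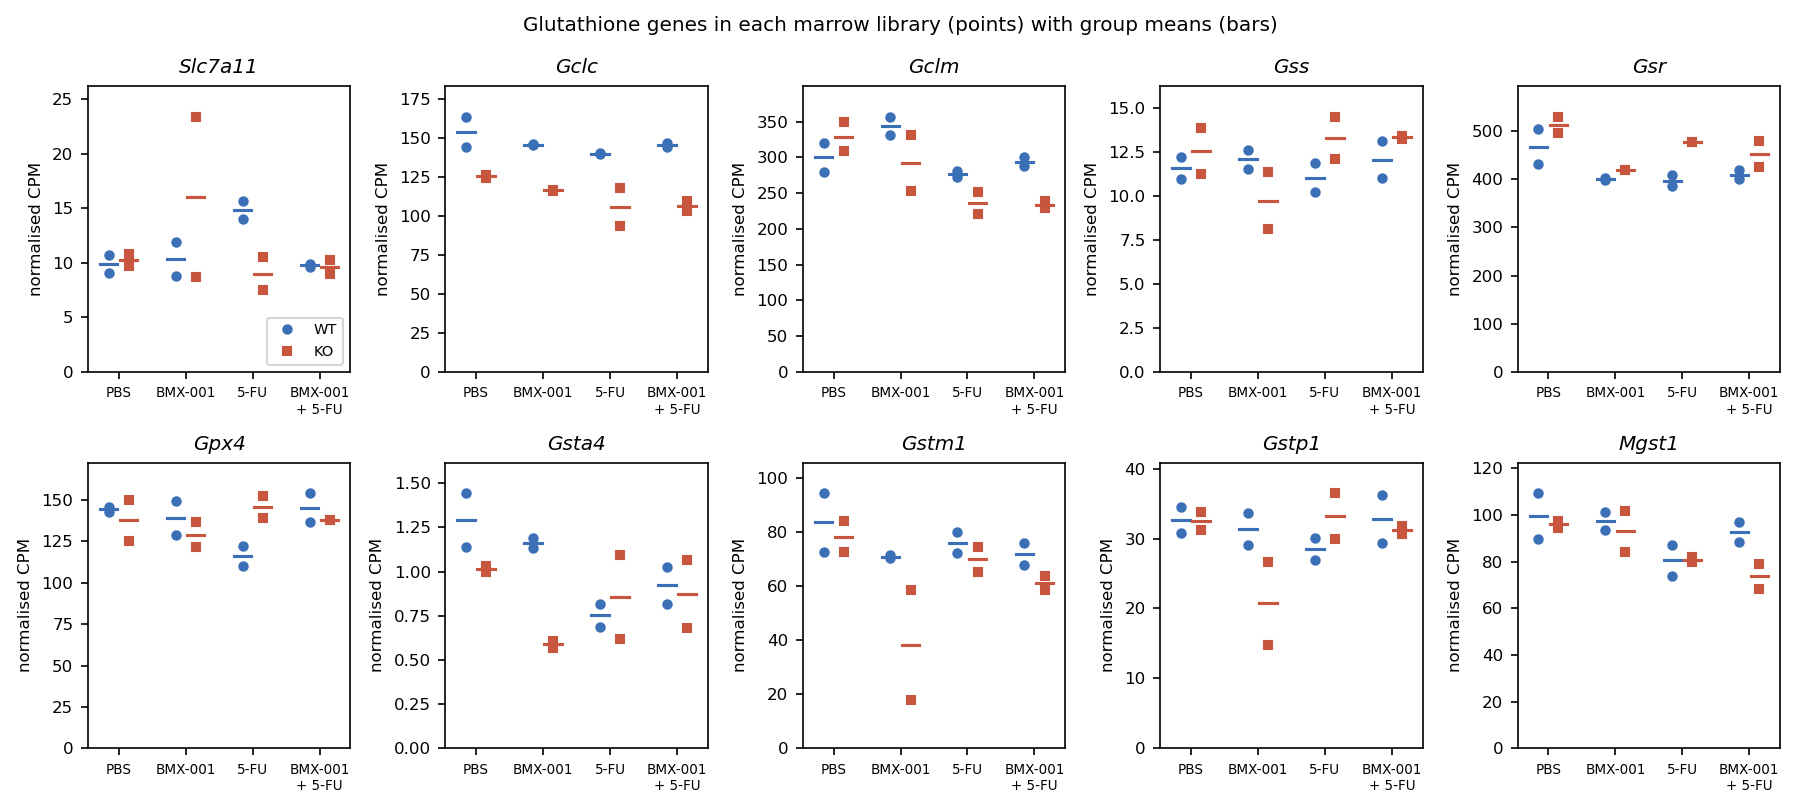
Normalised CPM (y axis, from 0, own scale for each gene) of the 10 genes in each library, by treatment (x axis), with WT as blue circles, KO as red squares and bars for the means of 2 libraries. The KO points of Gclc lie below the WT points under every treatment, and KO BMX-001 replicate 1 stands alone for Slc7a11, at 23.4 CPM, and for Gstm1, at 18 CPM.

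The comparison of KO with WT, averaged over the 4 treatments, asks which of these genes depend on NRF2 in marrow. Gclc alone was called: it fell by 0.37 ± 0.06 on the log2 scale (SE), a difference of -22.6% (edgeR adjusted p = 0.0179). Gclm, Gss and Gsr, which supply the partner subunit, the second step of synthesis and the recycling enzyme, did not pass the test. Over all genes 0.178% were called in this comparison, 34 of 19152, of which 12 were higher and 22 lower. The count of 1 called among these 10 is to be read against that share, with 3 of the 10, and 2440 of all genes, at an unadjusted p under 0.05. The 10 genes had a median log2 fold change of -0.11, with 7 negative and 3 positive values, and the median of all genes was 0.00. The other 9 genes stayed uncalled also by DESeq2.

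Gclc (ENSMUSG00000032350.10) stood at 144 and 163 CPM in the WT PBS libraries, at 146 and 145 with BMX-001, at 140 and 139 with 5-FU, and at 144 and 146 with both drugs. In KO it stood at 126 and 124 CPM with PBS, at 116 and 116 with BMX-001, at 118 and 93.3 with 5-FU, and at 103 and 110 with both. Every KO library lay below every WT library, from the lowest WT value of 139.5 CPM down to the highest KO value of 126.3 CPM, a pattern that 0.104% of all genes showed. The KO mean differed from the WT mean by -18.6% with PBS, -20.1% with BMX-001, -24.6% with 5-FU and -26.8% with both drugs. Without KO BMX-001 replicate 1 Gclc fell by 0.37 ± 0.05 on the log2 scale (edgeR adjusted p = 0.00125), in a fit that called 1.39% of all genes. The size of the change held between -0.41 and -0.33 when any 1 of the 16 libraries was left out, but the call did not: the adjusted p stayed under 0.05 in 6 of these 16 fits. In the other 10 it lay between 0.0502 and 0.0875. Those were the fits without any 1 of 7 WT libraries (each but PBS replicate 1), without KO PBS replicate 2 or without either KO library given both drugs.

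Gclm (ENSMUSG00000028124.17), the partner of Gclc, was not called. Its WT values ran from 273 CPM at the lowest through a median of 294 to 357 CPM at the highest, and its KO values from 221 through 252 to 349 CPM. The genotypes overlapped widely, and in PBS the KO values of 308 and 349 CPM interleaved with the WT values of 280 and 321 CPM. The KO mean differed from the WT mean by 9.4% with PBS, but by -15.3% with BMX-001, -14.6% with 5-FU and -20.4% with both drugs. Averaged over treatments the log2 fold change was -0.17 ± 0.07 (edgeR adjusted p = 0.329), and -0.12 ± 0.05 (0.267) without KO BMX-001 replicate 1.

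Since the 2 subunits work as a pair, the counts of Gclc per count of Gclm were also taken within each library. In WT this ratio was 0.515 and 0.51 with PBS, 0.44 and 0.406 with BMX-001, 0.5 and 0.511 with 5-FU, and 0.48 and 0.51 with both drugs. In KO it was 0.41 and 0.356 with PBS, 0.462 and 0.35 with BMX-001, 0.467 and 0.423 with 5-FU, and 0.45 and 0.459 with both. Over all treatments the genotypes overlapped, at 0.406 to 0.515 in WT and 0.350 to 0.467 in KO. Both KO ratios lay below both WT ratios with PBS, with 5-FU and with both drugs, but not with BMX-001. There the exception was KO BMX-001 replicate 1, at 0.462, while replicate 2, at 0.35, lay below both WT ratios. How often ratios of other genes part 2 libraries from 2 was not counted. In both drugs against 5-FU in WT, the levels of 45.4% of all genes did so in either direction. The ratio also carries the fall of Gclc given above.

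**Figure D2:**
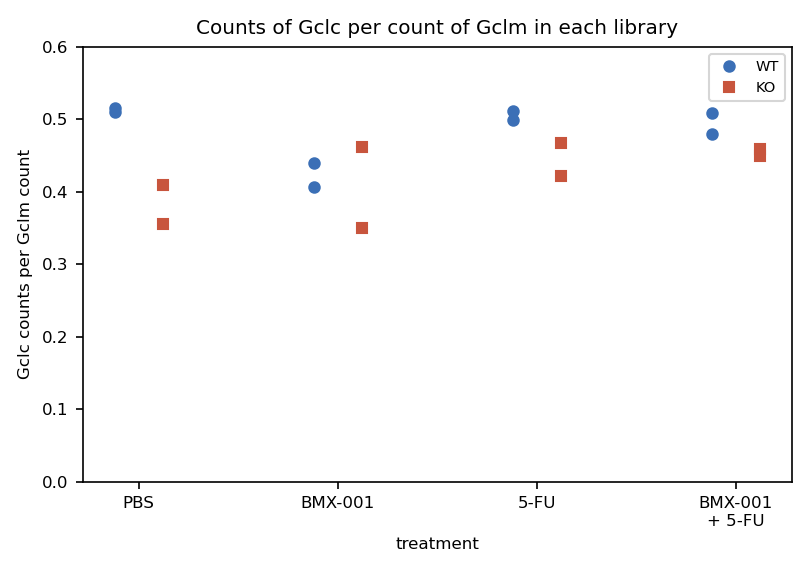
Counts of Gclc per count of Gclm (y axis, from 0) in each library by treatment (x axis), WT as blue circles and KO as red squares. The KO median of 0.436 lies below the WT median of 0.505, and under BMX-001 only KO replicate 1, at 0.462, reaches the WT points.

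Slc7a11 (ENSMUSG00000027737.11), the transport subunit of the cystine-glutamate exchanger and a known NRF2 target, was not called between genotypes, with a log2 fold change of -0.02 ± 0.17 (edgeR adjusted p = 0.973). Its values were 11.2 ± 2.49 CPM in WT and 11.2 ± 5.04 CPM in KO (SD, n = 8 each). In KO, 7 libraries lay between 7.52 and 10.8 CPM and KO BMX-001 replicate 1 stood at 23.4 CPM. Without that library the log2 fold change was -0.24 ± 0.09 (edgeR adjusted p = 0.242). In the WT 5-FU libraries Slc7a11 reached 14 and 15.7 CPM, the 2 highest values apart from that library.

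Gss (ENSMUSG00000027610.18), glutathione synthetase, was at 11.7 ± 0.947 CPM in WT and 12.2 ± 2.03 CPM in KO (SD, n = 8 each), a log2 difference of 0.06 ± 0.09 (edgeR adjusted p = 0.809), or 0.11 ± 0.08 (0.577) without KO BMX-001 replicate 1. Gsr (ENSMUSG00000031584.17), the reductase that returns oxidised glutathione to its reduced form at the cost of NADPH, was at 419 ± 37.0 CPM in WT and 466 ± 40.6 CPM in KO. Its log2 difference of 0.15 ± 0.05 did not pass the test (edgeR adjusted p = 0.282, n = 8 each). The KO mean of Gsr was above the WT mean under each treatment, by 9.7% with PBS, 4.56% with BMX-001, 20.1% with 5-FU and 10.4% with both drugs. Gclc and Gsr, the entry to synthesis and the recycling step, thus had fold changes of opposite sign, of which only the first passed the test.

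Among the genes that spend glutathione, Gpx4 (ENSMUSG00000075706.12), which reduces lipid peroxides in membranes and guards against ferroptosis, was at 136 ± 15 CPM in WT and 138 ± 10.6 CPM in KO (SD, n = 8 each). Its log2 fold change came to 0.02 ± 0.06 (edgeR adjusted p = 0.918). The transferases, which join glutathione to electrophiles, all had negative values without passing the test by edgeR. For Gstm1 (ENSMUSG00000058135.13) the value was -0.33 ± 0.19 (adjusted p = 0.480), and -0.18 ± 0.06 (0.186) without KO BMX-001 replicate 1, where it stood at 18 CPM against 58.4 to 84.0 CPM in the other KO libraries. Gsta4 (ENSMUSG00000032348.7), which acts on the lipid aldehyde hydroxynonenal, was at 1.03 ± 0.247 CPM in WT and 0.83 ± 0.233 CPM in KO (adjusted p = 0.470, n = 8 each, by edgeR). The log2 difference of Gstp1 (ENSMUSG00000060803.7) was -0.11 ± 0.11 (edgeR adjusted p = 0.668), and -0.02 ± 0.06 (0.926) without that library. That of Mgst1 (ENSMUSG00000008540.12), a membrane-bound transferase, was -0.11 ± 0.07 (edgeR adjusted p = 0.493).

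**Figure D3:**
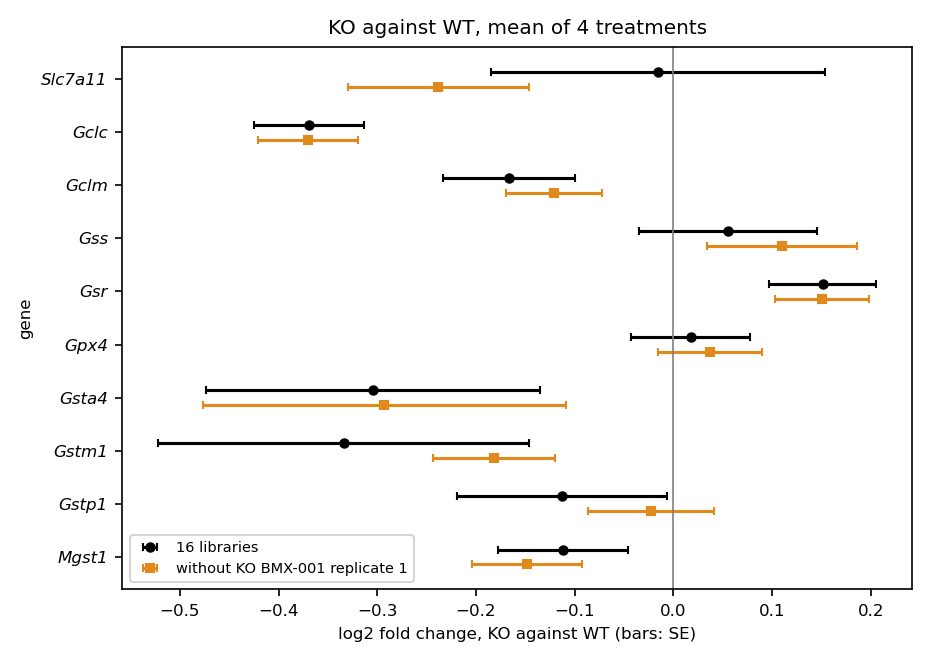
Log2 fold change of KO against WT averaged over 4 treatments (x axis, bars for SE) for the 10 genes (y axis), from 16 libraries in black and without KO BMX-001 replicate 1 in orange. Gclc lies at -0.37 in both, whereas Slc7a11 moves from -0.02 to -0.24 and Gstm1 from -0.33 to -0.18.

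The rest of the pathway was given by lists of genes with related roles. None of the 17 other glutathione transferases tested was called in KO against WT, with a median log2 fold change of -0.07. The same held for 9 other peroxidases and glutaredoxins (median -0.07), 24 genes of glutathione breakdown, salvage and transport (-0.04), 7 genes of transsulfuration (-0.03) and 13 genes of NADPH supply (-0.07). Of 19 other NRF2 targets 4 fell and none rose, with a median of -0.13. Pir, an iron-binding nuclear protein, fell by 1.42 ± 0.09 on the log2 scale, and Srxn1, the sulfiredoxin that repairs peroxiredoxins, fell by 1.09 ± 0.11 (edgeR adjusted p = 0.000587). Nqo1, a quinone reductase, fell by 0.63 ± 0.07 (edgeR adjusted p = 0.00117). Txnrd1, the thioredoxin reductase that runs parallel to Gsr, fell by 0.37 ± 0.06 (edgeR adjusted p = 0.0330), from 93.4 ± 5.34 to 73.1 ± 12.0 CPM (SD, n = 8 each). The call of Txnrd1 was kept in 3 of the 16 fits that leave out 1 library. The drop of Gclc was thus as large as that of Txnrd1 and smaller than those of Nqo1, Srxn1 and Pir.

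Of the markers of 10 kinds of marrow cell, 1 was called in KO against WT. Marco, a scavenger receptor of macrophages and 1 of 12 markers of monocytes and macrophages, fell by 3.78 ± 0.42 on the log2 scale (edgeR adjusted p = 0.00244). Its means were 1.08 ± 0.439 CPM in WT and 0.156 ± 0.176 CPM in KO (SD, n = 8 each), a smaller change than the fitted one. The fit averages groups on the log scale, and the lowest KO library held 0 CPM. The highest KO value, 0.543 CPM, lay above the lowest WT value, 0.472 CPM. The list of 12 had a median of -0.06. All 12 B lineage markers, such as Pax5 and Cd79b, had negative log2 fold changes in KO against WT, with a median of -0.38 and a summed level of 650 to 1013 CPM in KO and 919 to 1429 CPM in WT. All 10 markers of maturing neutrophils had positive ones, with a median of 0.13, and the 14 erythroid markers had a median of -0.10. Negative values were also found for all 9 markers of megakaryocytes and platelets (median -0.33) and for 11 of 13 of stroma and bone (-0.19). All 10 markers of T and NK cells were positive (0.12), and the 8 plasma cell markers had 4 of each sign (0.24). Medians were -0.03 for granulocyte precursors and -0.02 for basophils, mast cells and eosinophils. In whole marrow, fewer cells of a type and less RNA per cell cannot be told apart. The part of these cells in the fall of Gclc was not tested. Across the 15 libraries without KO BMX-001 replicate 1, which share genotype and treatment groups, the level of Gclc was set against each marker sum. Its Pearson r ran from -0.447 with T and NK cells to 0.609 with the B lineage, and was 0.122 with the erythroid sum.

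The effect of 5-FU was taken in each genotype over the libraries with and without BMX-001. None of the 10 genes was called in either genotype by edgeR. In WT, 0.0574% of all genes were called, 11 of 19152 with 2 higher and 9 lower, and 1 of the 10 genes, against 1828 of all genes, had an unadjusted p under 0.05. In KO, 1.9% of all genes were called, 364 with 31 higher and 333 lower, and 3 of the 10 genes, against 3294 of all genes, had an unadjusted p under 0.05. DESeq2 called 1 of the 10 in KO, Gclm, and none in WT. The median log2 fold change of the 10 genes was -0.09 in WT, with 9 negative, and 0.04 in KO, with 4 negative.

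Gclm was at 308 and 349 CPM in KO with PBS, at 252 and 331 with BMX-001, at 252 and 221 with 5-FU, and at 228 and 239 with both drugs. The 4 libraries with 5-FU lay below all 4 without it, though only just, at 251.7 CPM in the highest of the first and 252.2 CPM in KO BMX-001 replicate 1. Of all genes 4.43% had every library with 5-FU below every one without it in KO. The mean was 310.1 ± 41.9 CPM without and 235 ± 13.4 CPM with 5-FU (SD, n = 4 each). The log2 fold change of -0.40 ± 0.10 narrowly missed the threshold (edgeR adjusted p = 0.0553). With DESeq2 the same log2 fold change gave an adjusted p of 0.00235. Without KO BMX-001 replicate 1 the mean without 5-FU was 329 ± 20.3 CPM (SD, n = 3), and Gclm fell by 0.49 ± 0.07 on the log2 scale (edgeR adjusted p = 0.000523), in a fit that called 3.49% of all genes. Over the 16 fits that leave out 1 library the log2 fold change ran from -0.49 to -0.28, and 2 of them passed the threshold, those without either KO BMX-001 library.

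In WT, Gclm was at 280 and 321 CPM with PBS, at 331 and 357 with BMX-001, at 280 and 273 with 5-FU, and at 300 and 288 with both. The libraries with and without 5-FU overlapped, through PBS replicate 1. The log2 fold change was -0.17 ± 0.10 (edgeR adjusted p = 0.597), and the means were 322 ± 32.0 and 285 ± 11.4 CPM (SD, n = 4 each). The difference between the genotypes in this effect, -0.22 ± 0.13, did not pass the test (edgeR adjusted p = 0.691), nor did it without KO BMX-001 replicate 1 (-0.31 ± 0.10, adjusted p = 0.466). A larger fall in KO than in WT was therefore not shown.

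Gclc was lower with 5-FU by less: its log2 fold change was -0.07 ± 0.08 in WT (edgeR adjusted p = 0.835) and -0.19 ± 0.08 in KO (0.254). Slc7a11 had values of opposite sign, 0.25 ± 0.24 in WT (edgeR adjusted p = 0.796) and -0.46 ± 0.24 in KO (0.344). The KO value rested on 1 library, since without KO BMX-001 replicate 1 it was -0.02 ± 0.14 (0.969). Gss, with -0.04 ± 0.13 in WT and 0.27 ± 0.13 in KO (0.16 ± 0.11 without KO BMX-001 replicate 1), and Gsr, with -0.10 ± 0.08 in WT and 0.00 ± 0.08 in KO, were not called in either genotype by edgeR.

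Of the genes that use glutathione, Mgst1 had negative values in both genotypes, -0.19 ± 0.09 in WT (edgeR adjusted p = 0.557) and -0.29 ± 0.09 in KO (0.152). Its KO levels were 94.6 ± 7.59 CPM without and 77.3 ± 6.13 CPM with 5-FU (SD, n = 4 each). Gsta4 in WT went from 1.23 ± 0.147 CPM without 5-FU to 0.84 ± 0.139 CPM with it (SD, n = 4 each), with every library given the drug below every one that was not, as held for 4.49% of all genes. Its log2 fold change of -0.56 ± 0.23 did not pass the test (edgeR adjusted p = 0.472), and in KO the value was 0.16 ± 0.24 (0.746). Gpx4 had log2 fold changes of -0.13 ± 0.09 in WT and 0.09 ± 0.09 in KO (0.05 ± 0.08 without KO BMX-001 replicate 1). Gstp1, at -0.07 ± 0.15 and 0.31 ± 0.15, and Gstm1, at -0.06 ± 0.26 and 0.26 ± 0.27, were not called either by edgeR. Without KO BMX-001 replicate 1 the KO values were 0.13 ± 0.10 for Gstp1 and -0.05 ± 0.09 for Gstm1, whose sign thus turned.

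**Figure D4:**
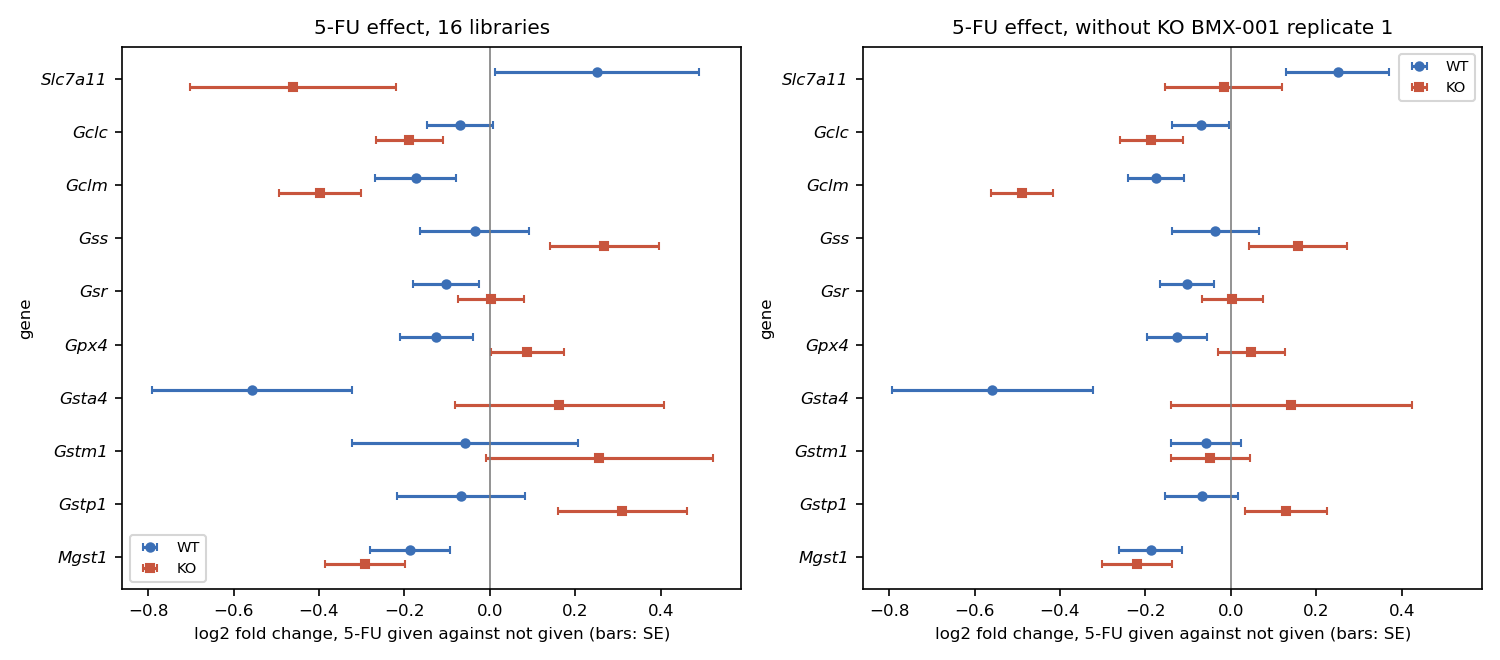
Log2 fold change of libraries given 5-FU against those not given it (x axis, bars for SE) for the 10 genes (y axis), WT in blue and KO in red, from 16 libraries on the left and without KO BMX-001 replicate 1 on the right. Gclm in KO moves from -0.40 to -0.49 without that library and Slc7a11 in KO from -0.46 to -0.02.

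The test of the difference between genotypes in the 5-FU effect called none of the 10 genes, and 0% of all 19152 genes were called by edgeR. None of the 10 had an unadjusted p under 0.05, against 1300 of all genes, and DESeq2 called none of the 10 and 39 of all genes. The difference was 0.72 ± 0.34 for Gsta4 and -0.71 ± 0.34 for Slc7a11 (edgeR adjusted p = 0.689 for both). Without KO BMX-001 replicate 1 it was 0.70 ± 0.37 for Gsta4 (0.723) and -0.27 ± 0.18 for Slc7a11 (0.786).

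Around these genes, 5-FU in KO marrow lowered 3 of 24 genes of glutathione breakdown, salvage and transport (median of the list -0.03, and 0.01 for all genes). Chac2, which degrades glutathione, fell by 0.59 ± 0.09 on the log2 scale, from 27.4 ± 2.40 to 18.3 ± 2.07 CPM (SD, n = 4 each, edgeR adjusted p = 0.00361). Hagh, the glyoxalase that releases glutathione from its lactoyl form, fell by 0.55 ± 0.08 (edgeR adjusted p = 0.00361). Slc25a39, the carrier of glutathione into mitochondria, fell by 0.45 ± 0.09, from 412 ± 25.9 to 302 ± 25.3 CPM (SD, n = 4 each, edgeR adjusted p = 0.0183). Over the 16 fits that leave out 1 library, the calls of Chac2 and Hagh were kept in 16 and that of Slc25a39 in 11, with an adjusted p of up to 0.109.

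Of 13 genes of NADPH supply, the mitochondrial NAD kinase Nadk2 fell by 0.54 ± 0.07 (edgeR adjusted p = 0.00214), and malic enzyme Me1 rose by 1.39 ± 0.30 (0.0282) from a level of only 0.21 CPM. The call of Me1 was kept in 8 of the 16 fits that leave out 1 library, and was lost without KO BMX-001 replicate 1 at an adjusted p of 0.0558, while that of Nadk2 was kept in 16. Of 19 other NRF2 targets, the autophagy receptor Sqstm1 fell by 0.44 ± 0.09 (edgeR adjusted p = 0.0174) and the haem transporter Slc48a1 by 0.44 ± 0.09 (0.0185), each called in 11 of the 16 fits. None of the other transferases (17 tested), other peroxidases and glutaredoxins (9) or transsulfuration genes (7) was called for 5-FU in KO, and no gene of these 6 lists was called for 5-FU in WT.

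Most markers of red cell precursors had negative values with 5-FU, as Gclm had, and other cell types shifted as well. In KO, 5-FU lowered 7 of 14 erythroid markers, with a list median of -0.52. Markers of the B lineage (10 of 12 negative, median -0.24) and of maturing neutrophils (9 of 10, -0.14) leaned the same way without a call. Positive values held for all 13 markers of stroma and bone (0.76), all 9 of megakaryocytes and platelets (0.66) and all 8 of granulocyte precursors (0.36). So they did for 9 of 10 of T and NK cells (0.24), and none of these was called. Among the 8 plasma cell markers 5 were positive (median 0.05), but Irf4 was called, at -0.85 ± 0.18 (edgeR adjusted p = 0.0336). Its value was -0.73 without KO BMX-001 replicate 1. Monocytes and macrophages (7 of 12 positive, 0.05) and basophils, mast cells and eosinophils (7 of 9, 0.21) had no call. The erythroid sum ranged from 82901 to 94630 CPM in KO without 5-FU and from 57607 to 70254 CPM with it. In WT none of the 14 was called, the median was -0.27, and the sum ranged from 63644 to 91275 CPM without and from 50665 to 69761 CPM with 5-FU. Other lists shifted in WT as well, without a call. All 8 plasma cell markers were negative (median -0.58), as were 11 of 12 of the B lineage (-0.34). All 9 markers of megakaryocytes and platelets were positive (0.31). Across the 15 libraries without KO BMX-001 replicate 1, the level of Gclm had a Pearson r of 0.712 with the erythroid sum. The r was 0.604 with the sum of monocytes and macrophages and -0.542 with that of T and NK cells. The part of any of these cells in the lower Gclm was not tested.

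**Figure D5:**
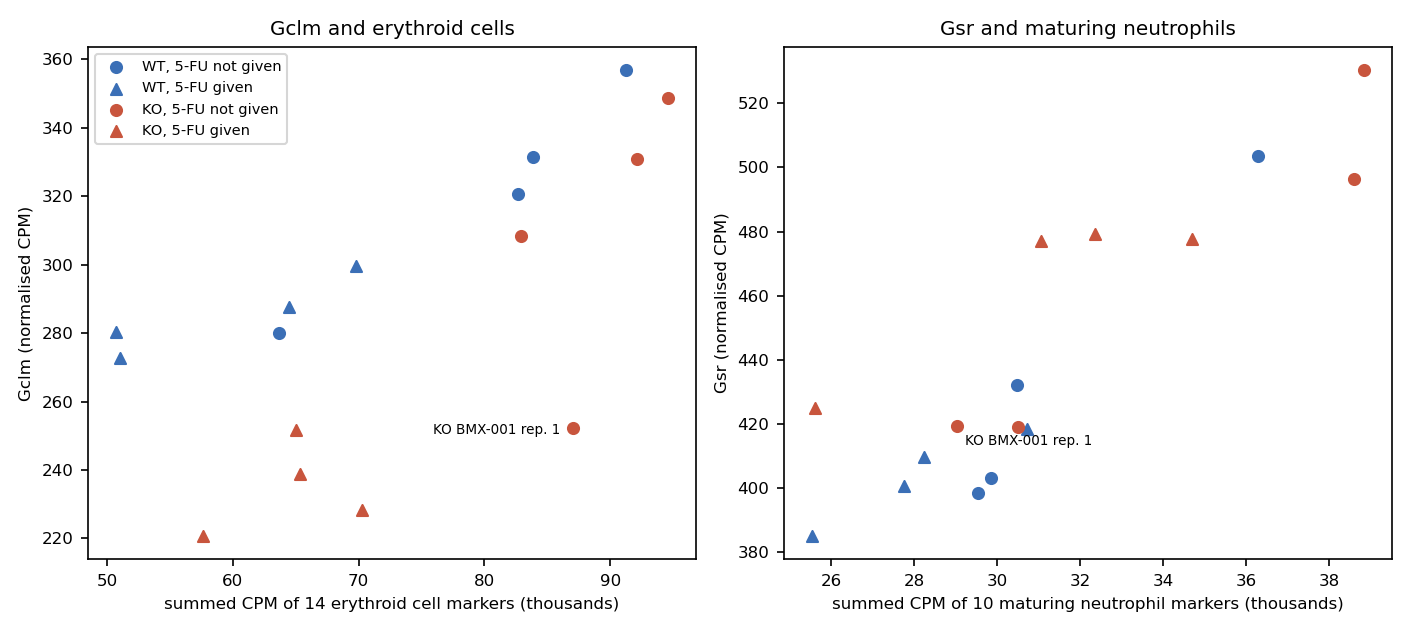
Gclm against the summed level of 14 erythroid markers (left) and Gsr against that of 10 markers of maturing neutrophils (right), both in normalised CPM (sums on an axis scaled down as marked), 1 point per library, WT in blue and KO in red, circles without and triangles with 5-FU. The libraries with 5-FU lie at low erythroid sums. Among them Gclm ran from 221 to 252 CPM in KO and from 273 to 300 CPM in WT. How many of all genes part the genotypes in this way was not counted. Gclm was not called between the genotypes, nor for their difference in the 5-FU effect.

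BMX-001, taken over the libraries with and without 5-FU, gave no call among the 10 genes by edgeR or DESeq2. In WT, 0% of all genes were called by edgeR, none of the 10 had an unadjusted p under 0.05 and 590 of all genes had one. DESeq2 called 1 gene of all in WT. The log2 fold changes in WT included 0.14 ± 0.10 for Gclm, -0.01 ± 0.08 for Gclc, 0.13 ± 0.09 for Gpx4 and -0.27 ± 0.24 for Slc7a11. In KO, 0.0157% of all genes were called, 3 of 19152, and 3 of the 10 had an unadjusted p under 0.05, against 4392 of all genes. Those 3 were Gstm1 at -0.61 ± 0.27 (edgeR adjusted p = 0.205), Gstp1 at -0.37 ± 0.15 (0.185) and Gsr at -0.19 ± 0.08 (0.187).

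These KO values leaned on 1 library: Gstm1 was at 18 and 58.4 CPM in the KO BMX-001 pair and Gstp1 at 14.8 and 26.7 CPM. Without KO BMX-001 replicate 1 the log2 fold change of Gstm1 was -0.31 ± 0.09 (edgeR adjusted p = 0.209), that of Gstp1 -0.19 ± 0.10 (0.416), and that of Slc7a11 went from 0.37 ± 0.24 (0.348) to -0.08 ± 0.14 (0.862). Gsr kept its value of -0.19 ± 0.07 (0.298). Gclc, at -0.05 ± 0.08, and Gclm, at -0.09 ± 0.10 (0.00 ± 0.07 without that library), were closer to 0 in KO with all 16 libraries. The genotype difference in the BMX-001 effect called none of the 10, and 0% of all genes, by edgeR, with none of the 10 and 2204 of all genes at an unadjusted p under 0.05. Of all genes DESeq2 called 17, and none of the 10.

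Whether BMX-001 altered the marrow of mice that also received 5-FU was asked by setting both drugs against 5-FU alone, 2 libraries against 2. In WT, 0% of all genes were called by edgeR and 753 had an unadjusted p under 0.05. Gpx4, the 1 of the 10 genes below that unadjusted limit, stood at 122 and 110 CPM with 5-FU and at 154 and 137 with both drugs. Its log2 fold change of 0.32 ± 0.12 did not survive adjustment (edgeR adjusted p = 0.998). Slc7a11 was at 14 and 15.7 CPM with 5-FU and at 9.61 and 9.90 with both, without overlap, as for 5 of the 10 genes and 45.4% of all genes. Its log2 fold change of -0.61 ± 0.34 was not called either (0.998). In KO, 0% of all genes were called by edgeR, none of the 10 had an unadjusted p under 0.05 and 499 of all genes had one. There the log2 fold changes of Gclc and Gclm were 0.01 and -0.02. DESeq2 called none of the 10 in either genotype, and of all genes 0 in WT and 6 in KO. These comparisons share the 5-FU libraries with those above and are not independent of them.

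The genes whose levels ran most like each member were found by Pearson r of log2 CPM over the 15 libraries without KO BMX-001 replicate 1, among 13970 genes with a mean of at least 1 CPM. The libraries share genotypes, treatments and cell makeup, so the values describe likeness only. Nqo1 was closest to Gclc (r = 0.951), followed by Nap1l4 (0.943) and Ccp110 (0.939). For Gclm they were led by March5 (r = 0.982) and Eif2ak1 (0.979). Gclc and Gclm, though partners in 1 enzyme, had r = 0.663 with each other, and the member closest to Gclm was Mgst1 (0.74).

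Gsr ran most like Ifitm6 (r = 0.932), Cpne2 (0.928) and Ptpn9 (0.928), and its level had r = 0.876 with the summed markers of maturing neutrophils. No other member came near it, the closest being Gstp1 at 0.29. For Gpx4 the closest genes were Rpl41 (0.938), which encodes a ribosomal protein, Atp5e (0.919) and Bola2 (0.915). For Gss they were led by Slc25a1 (0.913), the mitochondrial citrate carrier, for Gstp1 by Mrps16 (0.947), for Gstm1 by Actn4 (0.921) and for Mgst1 by Hmgb2 (0.921). The 2 least abundant genes per kilobase had weaker company, Slc7a11 with Ankrd12 (0.887) and Gsta4 with Coasy (0.874). The 10 genes thus did not move as 1 block across the libraries.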

How the data were processed

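The deposited table holds raw counts, 1 column for each of the 16 libraries, with 0 columns unused. Per the submitters' processing notes the build was GRCm39 and the tools were featureCounts, Salmon 1.4.0, Trim Galore 0.6.4, FastQC 0.12.1, R 4.3.0 and DESeq2 1.38.3, whose roles are not stated. Not given in the sources used here are the strand setting, the aligner and the release of the annotation. Gene names and exon lengths came by Ensembl ID from GENCODE annotation of GRCm38, which matched 51880 of 57132 IDs and 214 of 215 list symbols.

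Counts were fitted with edgeR 4.0.16 (on limma 3.58.1 and R 4.3.3): filterByExpr, which left 19152 genes, TMM scaling, 8 group means and robust quasi-likelihood tests with 8 residual degrees of freedom, in 9 comparisons. Calls were made where the p, adjusted over all genes by Benjamini-Hochberg, was under 0.05. Alternatives were DESeq2 1.42.0, its size factors in edgeR, no filter, a replicate block and leaving out each library. The scripts were tested on simulated counts. The 2 libraries of each group differed by more than sampling noise (chi-square per degree of freedom 8.27 to 135).

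The members and lists were chosen with earlier results of these data known. The text names all 10 genes, Nfe2l2, up to 5 called genes of each pathway list, and up to 2 of the most abundant markers of a cell type (more where a count is illustrated). It also names the called markers Marco and Irf4, and the 3 genes most like each member, of which some are left out.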

Additional observations from a re-analysis of the deposited data

Results flagged for a closer look

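With 2 libraries per group no group could be searched for a library far from the rest, so the 8 libraries of each genotype were searched for each of the 10 genes, 20 sets in all. A library was singled out where its gap to the nearest other exceeded 0.526 of the set's range (Dixon's 95% value for 8 samples), which chance gives in about 1 in 20 sets. Treatments are mixed within each set.

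Gclc stood at 163 CPM in WT PBS replicate 2, against 146 CPM in the next library. Gsr stood at 504 CPM in the same library, against 432 CPM. Gstm1 stood at 94.4 CPM in WT PBS replicate 1, against 80.1 CPM. The remaining 3 cases were all in KO BMX-001 replicate 1: Slc7a11 at 23.4 CPM against 10.8 CPM in the next library, Gstm1 at 18 against 58.4 CPM, and Gstp1 at 14.8 against 26.7 CPM. In that library the summed markers of granulocyte precursors were at 712 CPM and those of monocytes and macrophages at 796 CPM, against 1498 to 2174 CPM for the latter in the other KO libraries. The part of these cells in the 3 values was not tested. Gclc in it, at 116 CPM, lay within the range of the other KO libraries.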

How the results depend on the processing

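Of all alternatives tried on the 10 genes in the 9 comparisons, none reversed a called value, 54 changed the sign of an uncalled one, 30 added a call and 10 ended one, all 10 of the latter that of Gclc in KO against WT when 1 library was left out. Without the filter the genes called were 879 for KO against WT, 430 for 5-FU in WT, 1790 for 5-FU in KO, 202 for the genotype difference in 5-FU, 125 for BMX-001 in WT, 2440 for BMX-001 in KO, 730 for the genotype difference in BMX-001, and 36 (WT) and 137 (KO) for both drugs against 5-FU. Members called were then 2 for KO against WT (Gclc and Gstm1), 1 for 5-FU in KO (Gclm) and 2 for BMX-001 in KO (Gstm1 and Gstp1). DESeq2 called, in the same order, 347, 230, 912, 39, 1, 820, 17 and, for both drugs against 5-FU in KO, 6 genes, and among members it added Gclm for 5-FU in KO (1 called), as did its size factors in edgeR (1 called). The cause was not tested.

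Leaving out each library gave 14 to 4467 genes and 0 to 5 members for KO against WT, 0 to 382 genes for 5-FU in WT, 139 to 6008 genes and 0 to 6 members for 5-FU in KO, 0 to 3645 and 0 to 3 for the genotype difference in 5-FU, 0 to 1 genes for BMX-001 in WT, 1 to 7936 and 0 to 6 for BMX-001 in KO, 0 to 5402 and 0 to 4 for the genotype difference in BMX-001, and 0 to 3 (WT) and 0 to 1 (KO) genes for both drugs against 5-FU. The highest member counts came from the fit that drops KO BMX-001 replicate 2, so that the deviating replicate 1 is alone in its group and is assumed to vary like the others. Without replicate 1 itself, 273 genes were called for KO against WT and 687 for 5-FU in KO.

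With the replicate number as a block, 30 genes were called for KO against WT, Gclc among them (adjusted p = 0.0355), and 322 for 5-FU in KO, and no call of a member changed. Whether the numbers pair the samples was not settled. Same-numbered libraries of 28 group pairs, KO BMX-001 replicate 1 among them, had deviations correlated from -0.515 to 0.33. The median was 0.03, and 12 were over 0.1, with no reference to compare them with. Depth bears most on Gsta4, which lies near 1 CPM. Its SE in KO against WT was 0.17, beside 0.17 for Slc7a11 and 0.19 for Gstm1. Without KO BMX-001 replicate 1 these SEs were 0.18, 0.09 and 0.06. Having 2 libraries a group limits the precision of every comparison.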
